A study of Mus musculus with 18 samples.

Results

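The 45 genes described here build and run the machinery that copies DNA: the complexes that license replication origins, the kinase and cofactors that switch the loaded helicase on, the polymerases with their clamp loader, and the factors that join, protect and repackage the new strands. They were listed by name in 11 role groups and looked up by gene name in the deposited count tables of 1 cross of mice. A gene by the listed name was found for 43 of them in the tables of the 129 allele and for 44 in those of the Cast allele, out of 40327 and 39147 genes, and 43 were matched between the tables. Pcna, the sliding clamp, had no row by that name in either set and is not analysed here. Mcm7 had a row by name in the Cast tables alone, and Gins3 was listed at 0 reads in every table.

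Before a cell can copy its genome, the origin recognition complex marks each origin in G1, and CDC6 and CDT1 load rings of the MCM2-7 helicase onto it. In S phase the kinase CDC7 with its partner DBF4 acts on the rings, CDC45 and the GINS complex join them, and the forks start. Resting follicular B cells sit outside the cell cycle, and ligands of Toll-like receptors such as CpG DNA bring them into it.

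All samples were splenic CD23+ B cells of female F1 129S1/Cast mice that were Xist+/-, so the deletion of Xist on one X chromosome is shared by both groups. In these mice it is the Cast copy of the X chromosome that is silenced in all cells, per the labels. The naive group had 3 samples and no treatment, and the other group had 3 samples stimulated in culture with 1 µM CpG for 24 h. The labels do not say whether samples came from separate animals, so p-values measure the spread between these samples, and there was no group cultured without CpG. Of the 18 samples in the series, 12 from another cross are not analysed here.

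Depth was 1987266 to 2928236 gene reads per sample on the 129 allele and 2465073 to 3321753 on the Cast allele. Reads tallied to no counted feature made up 57.95% to 67.1% of aligned reads in the naive samples and 44.5% to 56.7% after CpG. Such reads need not lie outside genes. Markers of B cells fell on both alleles, 10 of 10 tested on the 129 allele and 9 of 9 on the Cast allele, from a summed level of 9853 to 12259 CPM (read counts scaled to library size) to 3377 to 4153 CPM on the 129 allele. CD23 itself (Fcer2a) had the largest fall among them. Markers of macrophages were lower for 13 of 13 tested on each allele, from 2739 to 5475 CPM in naive samples to 11.3 to 14.3 CPM after CpG on the 129 allele, so the naive samples held RNA of macrophage marker genes that the stimulated ones nearly lacked. T cell markers went from 49.9 to 59.7 CPM to 4.28 to 9.15 CPM there, and of the neutrophil markers none had enough reads to be tested on either allele. The part of these shifts in the results below was not tested, and in bulk samples fewer cells of a type and less RNA per cell cannot be told apart. In the reference 21 of the 45 gene bodies, introns included, overlap at least 1 other gene. Whether counting used the strand is not given, so how far counts of those genes hold reads of their partners is not known.

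The samples numbered 3 stand apart at Mcm6. The genotype label gives both alleles to every autosomal gene, yet in both samples numbered 3 nearly all Mcm6 reads were Cast: 9 reads on the 129 allele against 418 on the Cast allele in the naive sample, and 149 against 7106 after CpG. The Cast share was thus 97.9% in each, against 66.8% and 63.4% in the other naive samples and 51.5% and 52.9% in the other CpG samples. The next genes in reference order on chromosome 1, Dars and Cxcr4, behaved likewise, and over these 3 genes the share was 93.0% to 99.3% in the samples numbered 3 and 34.9% to 66.8% in the rest. The next measured genes on either side, Ubxn4 and Yod1, had shares of 56.5% to 65.1% in the samples numbered 3 and 41.8% to 57.9% in the rest. Genes of this kind were not particular to number 3: of 7784 autosomal genes, 45 had a Cast share of at least 90% in both samples numbered 3 with 30% to 70% in the other 4 samples, and 22 and 13 genes did so for numbers 1 and 2. The reverse, a Cast share of at most 10% in both samples, was seen at 1 gene for number 1 and 0 for numbers 2 and 3. Among genes with 30% to 70% in the other 4 samples, 0 had 1 sample of a number at 90% or more with its partner at 70% or less. Results that rest on the alleles of Mcm6 are therefore given with and without the samples numbered 3, and the cause was not tested.

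**Figure D1:**
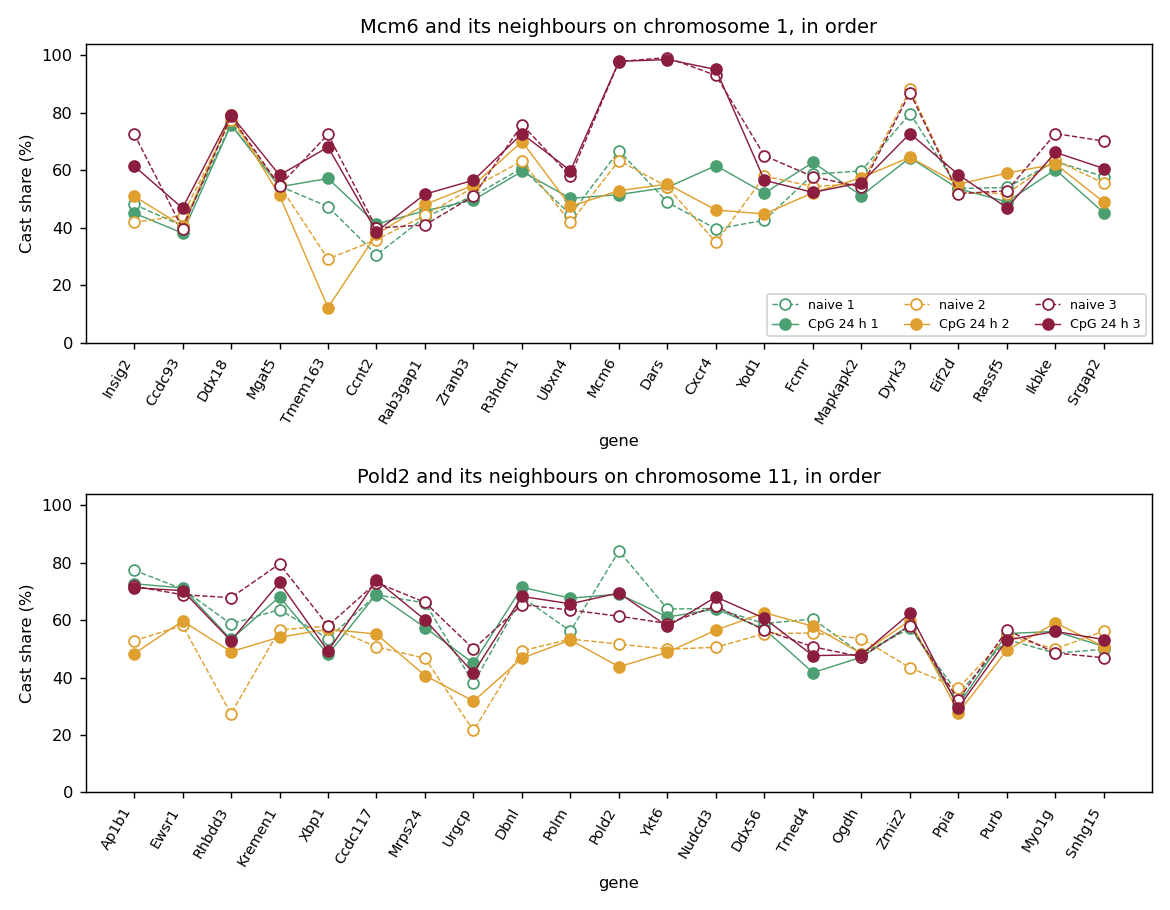
Cast share (% of 129 plus Cast reads) of Mcm6 (top) and Pold2 (bottom) and their 10 nearest measured genes on each side, in reference order and not to scale, for each of the 6 samples; open points and dashed lines are naive samples and filled points and solid lines CpG samples. Both samples numbered 3 reach 93.0% or more at Mcm6, Dars and Cxcr4, and number 2 is the lowest of its group in both groups at 12 of the 21 genes shown around and including Pold2.

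Many replication genes are known targets of E2F factors, and the promoters below were searched for letters such factors read. They are those of Mcm10, Cdc6 and Orc1, among the steepest rises of the set, of Mcm6 with its unequal alleles, of X-linked Pola1, and of Cdt1 and Orc5, which were called on neither allele. RefSeq start sites on GRCm38.p6 gave 46 windows, from 250 bases before to 50 after the start, for 37 of the 45 genes. The E2F letters searched on both strands were TTTCCCGC, TTTCGCGC, TTTGCCGC and TTTGGCGC, and capitals mark them in each sequence. The windows are of the reference strain, not of 129S1 or Cast, and run 5′ to 3′ in the direction of the gene. Mcm6 (chr1:128359656-128359955, minus strand) has 3 matches, the first pair of which overlap. Orc1 (chr4:108579204-108579503, plus strand), Cdc6 (chr11:98907901-98908200, plus strand), Pola1 (chrX:93632106-93632405, minus strand) and Cdt1 (chr8:122567765-122568064, plus strand) have 1 each, and Mcm10 (chr2:5012742-5013041, minus strand) and Orc5 (chr5:22550289-22550588, minus strand) have none.
Mcm10: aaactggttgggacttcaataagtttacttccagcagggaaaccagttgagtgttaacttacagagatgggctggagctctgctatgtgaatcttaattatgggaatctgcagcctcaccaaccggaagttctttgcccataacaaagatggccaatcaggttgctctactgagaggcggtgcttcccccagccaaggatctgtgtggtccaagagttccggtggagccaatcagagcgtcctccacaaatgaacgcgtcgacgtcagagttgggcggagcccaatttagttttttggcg
Mcm6: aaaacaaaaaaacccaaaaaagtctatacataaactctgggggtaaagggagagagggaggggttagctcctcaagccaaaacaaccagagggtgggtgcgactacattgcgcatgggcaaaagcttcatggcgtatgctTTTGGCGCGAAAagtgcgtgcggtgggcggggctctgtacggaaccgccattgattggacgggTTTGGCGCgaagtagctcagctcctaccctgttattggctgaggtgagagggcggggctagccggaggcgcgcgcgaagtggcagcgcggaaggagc
Orc1: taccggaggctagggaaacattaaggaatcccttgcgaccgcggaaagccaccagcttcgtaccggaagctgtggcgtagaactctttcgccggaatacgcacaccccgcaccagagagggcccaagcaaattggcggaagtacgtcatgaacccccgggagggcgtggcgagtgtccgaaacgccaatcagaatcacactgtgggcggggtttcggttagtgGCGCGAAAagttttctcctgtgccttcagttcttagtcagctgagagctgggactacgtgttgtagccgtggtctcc
Cdc6: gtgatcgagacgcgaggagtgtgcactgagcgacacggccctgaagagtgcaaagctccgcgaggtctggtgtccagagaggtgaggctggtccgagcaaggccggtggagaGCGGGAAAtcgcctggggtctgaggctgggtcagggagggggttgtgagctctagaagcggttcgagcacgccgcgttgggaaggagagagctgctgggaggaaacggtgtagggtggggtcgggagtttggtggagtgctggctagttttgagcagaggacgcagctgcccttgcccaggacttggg
Pola1: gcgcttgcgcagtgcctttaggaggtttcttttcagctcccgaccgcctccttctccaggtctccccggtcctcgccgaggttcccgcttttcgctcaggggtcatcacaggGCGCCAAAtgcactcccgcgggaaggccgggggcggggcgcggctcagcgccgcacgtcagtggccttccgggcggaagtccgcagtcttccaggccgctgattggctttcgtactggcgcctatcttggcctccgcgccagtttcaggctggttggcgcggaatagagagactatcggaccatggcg
Cdt1: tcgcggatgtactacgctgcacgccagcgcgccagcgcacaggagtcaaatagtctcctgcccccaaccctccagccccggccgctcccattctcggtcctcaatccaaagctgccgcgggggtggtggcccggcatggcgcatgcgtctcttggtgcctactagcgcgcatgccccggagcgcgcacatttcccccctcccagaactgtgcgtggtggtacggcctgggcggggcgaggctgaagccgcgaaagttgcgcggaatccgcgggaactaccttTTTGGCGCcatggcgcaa
Orc5: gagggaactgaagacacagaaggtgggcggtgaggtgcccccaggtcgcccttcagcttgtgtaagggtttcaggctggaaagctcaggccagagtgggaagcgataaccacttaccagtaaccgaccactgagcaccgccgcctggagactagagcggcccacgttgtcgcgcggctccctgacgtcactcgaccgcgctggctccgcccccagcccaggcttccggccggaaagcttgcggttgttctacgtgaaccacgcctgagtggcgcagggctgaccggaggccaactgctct

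At least 1 of the E2F letter strings was found in 15 of the 46 windows (32.6%), against 744 of all 32851 RefSeq promoter windows (2.26%). The 15 windows belonged to 15 genes: Mcm3, Mcm5, Mcm6, Mcm7, Orc1, Orc3, Cdc6, Cdt1, Dtl, Gins3, Pola1, Pold1, Pole2, Rfc3 and Lig1. The median GC content was 62.3% in the 46 windows of the set and 52.7% over all, and the windows compared were not matched on it. CCAAT, the letters of a common promoter box, stood in 54.3% of the windows against 37.4% of all, and TTTGAA, the core of the cell cycle homology region found in genes of later phases, in 17.4% against 17.9%. A match is a description of letters and not a binding site. Of the tested genes with a match, 10 of 13 were higher after CpG on the 129 allele and 12 of 14 on the Cast allele, by the calls given in the next paragraph. Of those with a window but no match it was 20 of 21 and 19 of 21, and no test compared them. Over all tested genes, with or without a match, 28.2% were higher on the 129 allele and 30.7% on the Cast allele. Orc3 and Cdt1, called on neither allele, have a match, and Mcm10, with the largest fold change on the 129 allele, has none in its window. The Mcm10 window ends in all but the last letter of TTTGGCGC, and the base past its edge was not searched.

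After 24 h of CpG nearly the whole set was higher, and none was lower. On the 129 allele 42 of the 45 genes had enough reads to be tested, and 38 were higher by edgeR's quasi-likelihood test (Benjamini-Hochberg adjusted p below 0.05 over all genes tested), against 28.2% of all tested genes called so and 27% called lower. On the Cast allele 39 of 43 tested were higher and 0 lower, against a background of 30.7% higher and 31.5% lower. Every CpG sample was above every naive sample for 39 genes on the 129 allele and 40 on the Cast allele, which 32.6% and 33.7% of all tested genes also did. The median log2 fold change was 2.84 on the 129 allele and 2.88 on the Cast allele, while that of all tested genes was -0.01 and -0.04. With the reads of both alleles summed, an analysis added after the shares of Mcm6 were seen, 40 of 42 genes were higher, against 34.2% of all. Without the samples numbered 3 it was 37 genes on the 129 allele and 39 on the Cast allele: Mcm6 joined on the 129 allele, and Pold2 (adjusted p = 0.0854, edgeR) and Rfc3 (adjusted p = 0.0903) dropped out there.

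As a share of all gene reads, the set went from between 0.190% and 0.215% in naive samples to between 1.10% and 1.12% after CpG on the 129 allele. For the Cast allele it went from between 0.190% and 0.211% to between 1.06% and 1.23%, the highest value being CpG sample 3. Without Mcm6 the CpG values ran from 1.01% to 1.10% on the 129 allele and from 0.962% to 1.01% on the Cast allele. The 6 CpG values stood far above the 6 naive ones. Of the 42 genes tested on both alleles, 37 were higher on both, and the alleles' log2 fold changes lay 0.29 apart in the median. Across these genes they correlated with Pearson's r = 0.955, a description, since genes are not replicates and the alleles come from the same libraries. The fold change was larger on the 129 allele for 25 genes and on the Cast allele for 17. These counts, the gap and the correlation were not taken over all tested genes. Of those, 28.2% were called higher on the 129 allele and 30.7% on the Cast allele.

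**Figure D2:**
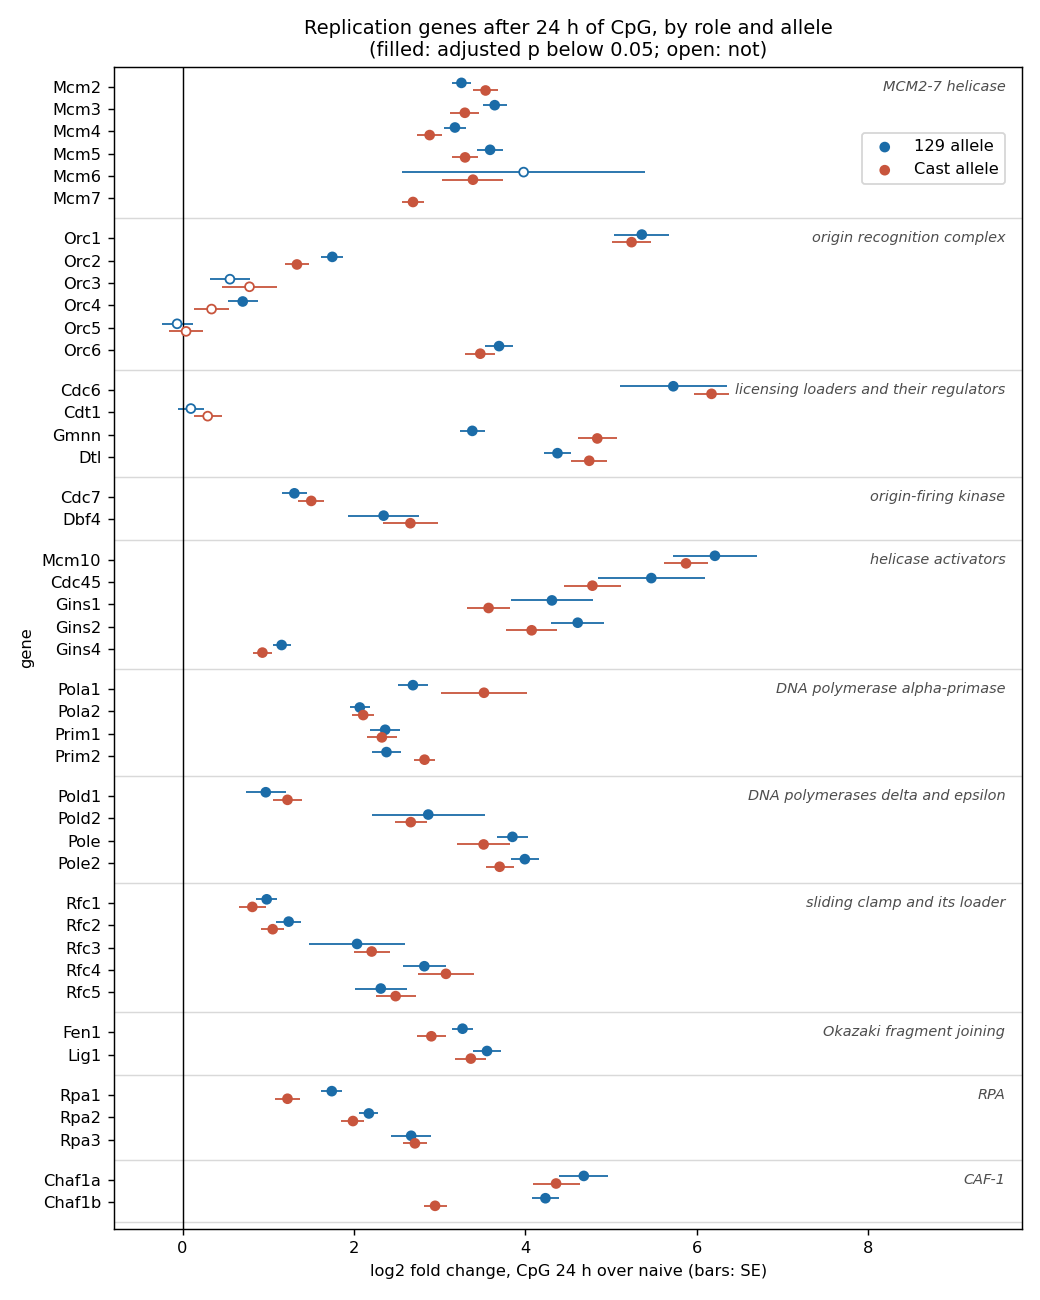
Log2 fold change of each tested gene (CpG 24 h over naive, 3 samples each, edgeR) on the 129 allele (blue) and the Cast allele (red), with bars of 1 SE, by role; filled points passed an adjusted p of 0.05. Points lie right of 0 almost throughout, the open points are Mcm6, Orc3, Orc5 and Cdt1 on the 129 allele and Orc3, Orc4, Orc5 and Cdt1 on the Cast allele, and the widest bar is that of Mcm6.

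Of the 6 subunits of the origin recognition complex, which encircles origin DNA, 4 were called higher on the 129 allele and 3 on the Cast allele. Orc1, the subunit whose level follows the cell cycle in many cells, was at 3.42, 2.48 and 0.996 CPM in the naive samples 1, 2 and 3 on the 129 allele and at 88.2, 96.4 and 110 CPM in the CpG samples. It was nearly silent in naive cells, on 2 to 8 reads, and no sample of the groups overlapped. Its log2 fold change was 5.36 (SE 0.32, edgeR adjusted p = 1.92e-05) on the 129 allele and 5.24 (SE 0.23, adjusted p = 6.52e-07) on the Cast allele. Orc6, a small subunit that also takes part in cell division, rose by a log2 of 3.69 and 3.47 on the 129 and the Cast allele, and Orc2 by 1.75 and 1.33. Orc4, Orc3 and Orc5 differed by less than 1 log2 on each allele.

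Orc4 was at 107, 94.9 and 125 CPM in naive and 201, 139 and 192 CPM in CpG samples on the 129 allele, up by 0.70 log2 (SE 0.18, edgeR adjusted p = 0.0117). Its levels on the Cast allele were 54.3, 47.3 and 61.1 CPM and then 80.2, 50.0 and 75.3 CPM, with overlap of the groups, a log2 fold change of 0.34 and an edgeR adjusted p of 0.166. It was thus called on the 129 allele alone, but the difference between the alleles was not past the threshold (log2 change of the Cast-to-129 ratio -0.37, edgeR adjusted p = 0.263). CpG sample 2 was the low one on both alleles, and without it Orc4 passed on the Cast allele too (edgeR adjusted p = 0.0170).

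Orc5, a core subunit with an ATPase fold, did not differ past the threshold on either allele. It was at 30.3, 27.6 and 35.8 CPM in naive and 29.3, 30.6 and 29.8 CPM in CpG samples on the 129 allele, a log2 difference of -0.06 (SE 0.18, edgeR adjusted p = 0.787). The Cast difference was 0.04 (SE 0.20, adjusted p = 0.866), and its sign depended on the scaling and on single samples. Orc3 differed by 0.55 and 0.78 log2 on the 129 and the Cast allele (edgeR adjusted p = 0.0836 and 0.0598). The replicate block, a term for the sample number described with the processing, took Orc3 past the threshold on the Cast allele (edgeR adjusted p = 0.0462), as did the sum of both alleles (edgeR adjusted p = 0.0229). The summed call was lost without the samples numbered 3 (edgeR adjusted p = 0.151) and without naive sample 1 or 3 or CpG sample 1 or 3 alone (0.0587 to 0.0741). Its gene overlaps Akirin2 and Rars2 in the reference, Orc4 overlaps Acvr2a and Mbd5, and Orc1 overlaps Prpf38a.

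**Figure D3:**
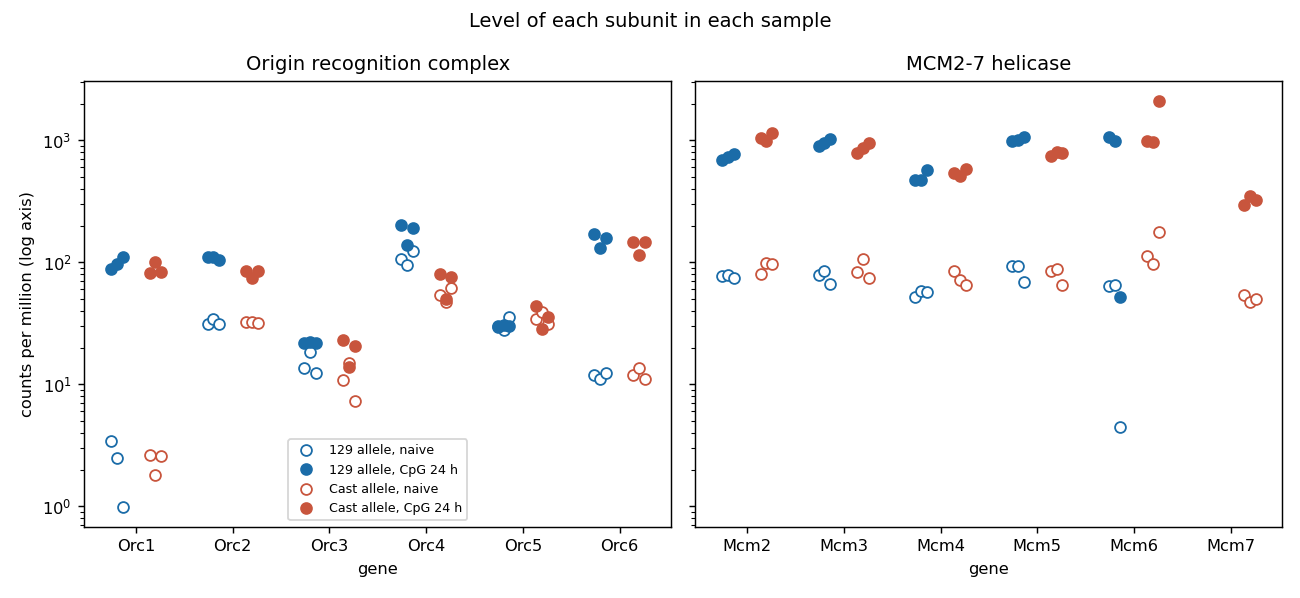
Level of each origin recognition complex subunit (left) and MCM2-7 subunit (right) in each sample, in CPM on a log axis; open points are the 3 naive and filled points the 3 CpG samples, in order of sample number, blue for the 129 allele and red for the Cast allele. Open and filled points are far apart for Orc1, Orc6 and the MCM genes, close for Orc3 and Orc4 and mixed for Orc5, and the low blue points of Mcm6 are the samples numbered 3.

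The MCM2-7 helicase rose in all its subunits on the Cast allele. The 6 genes were higher there, with log2 fold changes from 2.69 (Mcm7) to 3.54 (Mcm2). On the 129 allele 4 of 5 tested genes were called, and their changes ran from 3.18 (Mcm4) to 3.64 (Mcm3). Mcm4 was at 51.7, 58.6 and 57.3 CPM in naive and 477, 470 and 571 CPM in CpG samples on the 129 allele, with no overlap (log2 3.18, SE 0.13, edgeR adjusted p = 1.18e-05). Its Cast values were 84.7, 71.0 and 65.8 CPM and then 541, 508 and 586 CPM (log2 2.88, SE 0.14, edgeR adjusted p = 8.84e-07).

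Mcm6 was the fifth subunit tested on the 129 allele, and the missing 129 reads in the samples numbered 3 set its spread. Its 129 levels were 63.6, 64.8 and 4.48 CPM in naive and 1068, 996 and 51.6 CPM in CpG samples. With that spread the log2 fold change of 3.98 had an SE of 1.42 and missed the threshold (edgeR adjusted p = 0.0613). It passed without the samples numbered 3 (log2 4.01, edgeR adjusted p = 0.000683) and with the replicate block (edgeR adjusted p = 1.26e-11). Summed over the alleles, Mcm6 had 107, 98.6 and 117 CPM in naive and 1263, 1195 and 1412 CPM in CpG samples, so the samples numbered 3 were not low in total. The summed log2 fold change was 3.59 (SE 0.13, edgeR adjusted p = 9.01e-08), the largest of the 5 subunits summed, which started at 3.04 (Mcm4). Mcm7 could be read on the Cast allele alone, where it went from 53.6, 47.0 and 50.0 CPM to 297, 352 and 322 CPM (log2 2.69, SE 0.13, edgeR adjusted p = 8.64e-07). Its gene holds the microRNA hairpins Mir106b, Mir93 and Mir25 and overlaps Ap4m1 in the reference.

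Of the licensing loaders Cdc6 rose and Cdt1 was called on neither allele. Cdc6, the ATPase that brings the helicase to the origin recognition complex, was at 4.27, 11.1 and 0.996 CPM in naive and 351, 232 and 320 CPM in CpG samples on the 129 allele (log2 5.73, SE 0.63, edgeR adjusted p = 0.000598). Its Cast level went from 2.62, 2.51 and 1.71 CPM to 178, 151 and 179 CPM, the largest fold change of the set there (log2 6.17, SE 0.20, edgeR adjusted p = 5.23e-07). Its naive values rest on 2 to 27 reads per sample. Cdt1, which loads the helicase together with CDC6, already had a level above 100 CPM in each naive sample on both alleles.

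Cdt1 was at 138, 111 and 148 CPM in naive and 149, 124 and 150 CPM in CpG samples on the 129 allele, with the groups overlapping (log2 0.10, SE 0.15, edgeR adjusted p = 0.608). Its Cast level was 203, 133 and 195 CPM and then 209, 211 and 231 CPM (log2 0.29, SE 0.16, adjusted p = 0.147). Every Cast value after CpG was above every naive one, but by little, and of the alternatives run on the Cast allele it passed in 1, with no filter on low counts (edgeR adjusted p = 0.0488). Summed over the alleles Cdt1 differed by 0.25 log2 (SE 0.14, edgeR adjusted p = 0.131), and with the replicate block it passed there (log2 0.27, edgeR adjusted p = 0.0415). Gmnn, the inhibitor that binds CDT1 and keeps origins from being licensed again, rose on both alleles, as did Dtl, the substrate receptor that directs CDT1 to degradation (log2 4.37 and 4.75 on the 129 and the Cast allele). Gmnn went from 20.5, 18.2 and 17.4 CPM to 177, 217 and 192 CPM on the 129 allele (log2 3.38, SE 0.15, edgeR adjusted p = 1.18e-05). On the Cast allele it went from 5.62, 7.53 and 3.84 CPM to 142, 189 and 164 CPM (log2 4.84, SE 0.23, edgeR adjusted p = 8.14e-07). The naive Cast level was the low one, and after CpG the alleles were close.

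Both parts of the origin-firing kinase rose. Cdc7, the catalytic subunit, went from 44.9, 35.1 and 38.3 CPM to 89.3, 99.9 and 103 CPM on the 129 allele (log2 1.31, SE 0.15, edgeR adjusted p = 0.000272) and by a log2 of 1.50 on the Cast allele. Dbf4, the regulatory subunit, went from 20.1, 14.0 and 35.4 CPM to 86.4, 94.7 and 170 CPM there (log2 2.35, SE 0.42, edgeR adjusted p = 0.00331). Its Cast level went from 51.7, 30.8 and 30.7 CPM to 234, 337 and 146 CPM (log2 2.66, SE 0.32, edgeR adjusted p = 9.85e-05). The samples numbered 3 were the high ones on the 129 allele in both groups. On the Cast allele sample 3 was the low one after CpG, while naive samples 2 and 3 were alike.

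The helicase activators included some of the steepest rises. Mcm10, which joins the helicase when origins fire, went from 5.13, 11.6 and 1.99 CPM to 469, 478 and 482 CPM on the 129 allele (log2 6.21, SE 0.49, edgeR adjusted p = 0.000118). The Cast allele gave 5.99, 10.4 and 3.84 CPM and then 398, 430 and 388 CPM (log2 5.87, SE 0.26, edgeR adjusted p = 7.28e-07). The 3 CpG samples were alike on each allele, while the naive ones, on 4 to 29 reads, were not. Cdc45 rose by a log2 of 5.47 and 4.78, from 5 reads over the 3 naive samples together on the 129 allele and 8 on the Cast allele, and its gene overlaps Ufd1.

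The GINS ring has 4 subunits that act together, and their RNAs rose by unequal amounts, though differences between genes were not tested. Gins1 rose by a log2 of 4.31 and 3.57 on the 129 and the Cast allele and Gins2 by 4.61 and 4.07. Their naive reads were few: 1, 8 and 6 for Gins1 and 6, 3 and 3 for Gins2 on the 129 allele. On the Cast allele they were 29, 19 and 12 for Gins1 and 5, 8 and 3 for Gins2. Gins4 was at 114, 111 and 116 CPM in naive and 233, 265 and 262 CPM in CpG samples on the 129 allele (log2 1.16, SE 0.11, edgeR adjusted p = 9.94e-05). It was at 137, 140 and 149 CPM and then 276, 252 and 282 CPM on the Cast allele (log2 0.93, SE 0.11, edgeR adjusted p = 8.87e-05). Its naive samples were tight and held over 200 reads. Gins3 was listed at 0 reads in all 6 samples on both alleles, while its partners were counted, so its row gives no level.

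All 4 subunits of DNA polymerase alpha-primase, which starts each new strand with an RNA-DNA primer, rose on both alleles. Pola2, the regulatory subunit, had the smallest change of the group, from 64.5, 67.2 and 78.7 CPM to 294, 301 and 288 CPM on the 129 allele (log2 2.07, SE 0.12, edgeR adjusted p = 1.78e-05) and by a log2 of 2.11 on the Cast allele. Prim1, the catalytic primase, rose by 2.36 and 2.33 and its partner Prim2 by 2.38 and 2.82. Pola1, the catalytic subunit, is the X-linked gene of the set.

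Reads of Pola1 (MGP_129S1SvImJ_G0035903, MGP_CASTEiJ_G0034867) rose on the 129 and on the Cast allele. How a read was given to a strain is not given, and whether some Cast reads came from the 129 copy was not tested. On the 129 allele, the active X chromosome, it went from 24.3, 34.2 and 37.8 CPM to 201, 207 and 213 CPM (log2 2.69, SE 0.18, edgeR adjusted p = 2.62e-05). On the Cast allele, the inactive X chromosome, 3, 1 and 6 reads in the naive samples became 53, 57 and 40 reads after CpG (log2 3.52, SE 0.50, edgeR adjusted p = 0.000237). No sample of the groups overlapped on either allele. The Cast share of its reads was 5.0% in naive sample 1 (95% Wilson interval 1.71 to 13.7), 1.19% in sample 2 (0.21 to 6.44) and 7.32% in sample 3 (3.4 to 15.1). After CpG it was 8.6% (6.64 to 11.1), 8.82% (6.87 to 11.3) and 6.11% (4.52 to 8.21). These intervals cover counting error only, since reads are not independent molecules. The Pola1 gene overlaps Gm14780, Gm23557 and Gm35587 in the reference.

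The groups of Pola1 shares overlapped: 4.50% ± 3.09 in naive and 7.84% ± 1.51 in CpG samples (SD, n = 3 each), a difference of 3.34 percentage points (two-sided exact permutation p = 0.2, smallest possible 0.1). In the model of the allele ratio the Cast-to-129 ratio moved by a log2 of 0.84 (SE 0.47), with an edgeR adjusted p of 0.613 and 0.370 with the replicate block. With 3 samples in each group the permutation test of the share could not pass 0.05, and the ratio test did not. The naive shares rest on at most 6 Cast reads each. Over 201 X-linked genes with enough reads the median Cast share was 2.49% to 3.93% per sample, and over 7784 autosomal genes 51.2% to 52.1%. The authors' deposited table lists Pola1 with a mean of 3.84 RPKM (reads scaled by gene length and depth) in naive and 25.1 RPKM in stimulated cells over both alleles. In the authors' deposited table its ratio of inactive to active X, each divided by its strain's total, is 0.0403 and 0.0749.

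The 4 genes of the replicative polymerases rose on both alleles. Pole and Pole2, the catalytic and second subunits of the leading-strand polymerase epsilon, rose by a log2 of 3.85 and 3.99 on the 129 allele and 3.51 and 3.70 on the Cast allele. Pole2 went from 8.54, 7.01 and 8.96 CPM to 139, 132 and 121 CPM on the 129 allele (SE 0.16, edgeR adjusted p = 1.18e-05). Pold1, the catalytic subunit of the lagging-strand polymerase delta, went from 140, 171 and 207 CPM to 241, 415 and 358 CPM there (log2 0.97, SE 0.23, edgeR adjusted p = 0.00948), the smallest rise of the group. On the Cast allele it went from 89.2, 86.8 and 113 CPM to 184, 268 and 222 CPM (log2 1.22, SE 0.17, edgeR adjusted p = 0.000212). Its partner Pold2 rose by 2.87 and 2.66, with an SE of 0.66 on the 129 allele, where the samples numbered 1 and 3 were low in both groups. The call of Pold2 on the 129 allele (edgeR adjusted p = 0.0119) was lost with no filter on low counts (edgeR adjusted p = 0.0529). Its gene overlaps Aebp1.

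All 5 subunits of the clamp loader RFC, which opens the clamp and closes it round DNA, rose on both alleles. Rfc1, the large subunit, moved least, from 225, 276 and 218 CPM to 472, 492 and 457 CPM on the 129 allele (log2 0.98, SE 0.12, edgeR adjusted p = 0.000435) and by a log2 of 0.81 on the Cast allele. Rfc4, a small subunit, moved most on the 129 allele, from 6.83, 5.78 and 5.48 CPM to 34.3, 50.7 and 44.0 CPM (log2 2.82, SE 0.25, edgeR adjusted p = 8.18e-05) and by 3.07 on the Cast allele. Rfc2, Rfc3 and Rfc5 lay between them on both alleles. The call of Rfc3 on the 129 allele (edgeR adjusted p = 0.0212) did not hold without CpG sample 2 (0.0674) or CpG sample 3 (0.0584), or with no filter on low counts (0.0795). Its 129 level was low in the samples numbered 1, at 6.83 and 50.0 CPM, against 27.6 and 28.4 CPM in the other naive and 102 and 105 CPM in the other CpG samples.

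Fen1 and Lig1, the nuclease and the ligase that trim and seal Okazaki fragments, rose on both alleles. Fen1 went from 28.2, 31.8 and 26.4 CPM to 278, 270 and 286 CPM on the 129 allele (log2 3.27, SE 0.12, edgeR adjusted p = 1.10e-05) and by a log2 of 2.90 on the Cast allele. Lig1 went from 12.4, 12.0 and 12.9 CPM to 166, 144 and 129 CPM on the 129 allele (log2 3.55, SE 0.16, edgeR adjusted p = 1.21e-05) and by 3.36 on the Cast allele. No samples of the groups overlapped for either gene.

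The 3 subunits of RPA, which coats single-stranded DNA at the fork, all rose. Rpa3, the smallest subunit, went from 23.1, 33.0 and 31.4 CPM to 135, 211 and 210 CPM on the 129 allele (log2 2.67, SE 0.23, edgeR adjusted p = 7.62e-05) and by 2.71 on the Cast allele. Rpa1, the large subunit, had the smallest change, from 53.4, 63.5 and 56.8 CPM to 183, 197 and 201 CPM on the 129 allele (log2 1.74, SE 0.12, edgeR adjusted p = 2.99e-05) and by 1.22 on the Cast allele. CAF-1, the chaperone that lays histones on new DNA, rose strongly. Chaf1a, its large subunit, went from 8.97, 5.36 and 3.98 CPM to 169, 176 and 133 CPM on the 129 allele (log2 4.68, SE 0.28, edgeR adjusted p = 1.97e-05) and by 4.36 on the Cast allele.

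Chaf1b, the middle subunit of CAF-1, rose on both alleles but unequally. It went from 18.8, 19.0 and 14.9 CPM to 318, 308 and 371 CPM on the 129 allele (log2 4.23, SE 0.16, edgeR adjusted p = 1.10e-05). Its Cast level went from 33.7, 39.8 and 35.9 CPM to 281, 260 and 304 CPM (log2 2.95, SE 0.13, edgeR adjusted p = 7.28e-07). The naive 129 level was the low one, the reverse of Gmnn, and these were the only 2 of the 42 genes tested on both alleles whose fold changes lay more than 1 log2 apart.

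The change of the Cast-to-129 ratio was tested directly, in 1 edgeR fit over all matched genes with a term for each sample. It called 2 of the replication genes, Gmnn and Chaf1b, where 0.917% of all 10364 genes tested were called. The Cast share of Gmnn, on chromosome 13, in the naive samples was 23.8% (95% interval by Wilson 15.0 to 35.6), 32.3% (22.2 to 44.4) and 20.5% (11.2 to 34.5), and it was 47.8%, 50.1% and 50.2% after CpG. The groups did not overlap, which was also so for genes not called, such as Mcm5 and Orc4. The ratio of Gmnn rose by a log2 of 1.48 (SE 0.22, edgeR adjusted p = 0.0341). The Cast share of Chaf1b, on chromosome 16, was 67.2%, 70.7% and 73.7% in naive samples and 50.1%, 49.2% and 49.1% after CpG, and its ratio changed by -1.29 log2 (SE 0.13, adjusted p = 0.0123 in edgeR). Both genes thus went from unequal naive shares to shares within a few points of 50%, and no other reference gene overlaps either of them.

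These calls rest on few samples. Leaving out single samples left at most 1 of the 2 genes called, with edgeR adjusted p from 0.0320 to 0.151 for Gmnn and from 0.0228 to 0.0719 for Chaf1b, though the ratio moved the same way each time. The number of all genes called fell in step, to between 14 and 26. Without both samples numbered 3 neither gene was called (edgeR adjusted p = 0.231 for Gmnn and 0.139 for Chaf1b), and 2 of all genes were. With the replicate block 6 replication genes were called, against a background of 7.52%, and both genes were among them (edgeR adjusted p = 2.30e-05 for Gmnn and 1.86e-08 for Chaf1b). The others were Mcm6 (log2 -0.71, edgeR adjusted p = 2.17e-05, and -0.77 with adjusted p = 1.88e-06 without the samples numbered 3), Rpa1 (-0.52, adjusted p = 0.0103), Prim2 (0.46, adjusted p = 0.0298) and Mcm3 (-0.34, adjusted p = 0.0356). Without the block the Mcm6 ratio had an SE of 2.39 and its sign turned when single samples were left out.

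Genes beside Gmnn and Chaf1b in the reference order kept other shares. Cmah and BC005537, the nearest measured neighbours of Gmnn, had Cast shares of 53.8% to 59.5% and 50.3% to 60.8% over the 6 samples. Beside Chaf1b, Morc3 ran from 46.4% to 64.3%, and Hlcs from 85.5% to 89.6% in naive samples and 79.3% to 83.5% after CpG. Pigp, the next gene after Hlcs, ran from 67.0% to 72.2% in naive samples and 83.5% to 87.5% after CpG. The groups overlapped for neither Hlcs nor Pigp. Hlcs moved in the direction of Chaf1b and Pigp in the other. No test compared the neighbours with the 2 genes.

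**Figure D4:**
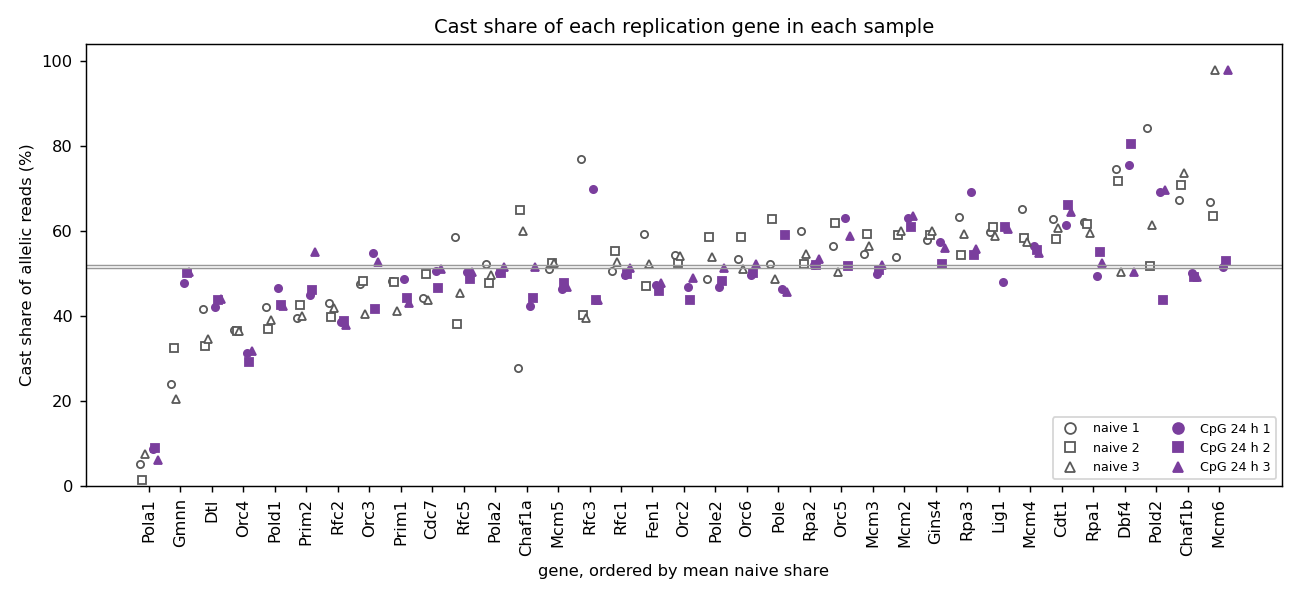
Cast share (% of 129 plus Cast reads) of each replication gene whose summed reads reach 20 in every sample, ordered by mean naive share; open grey symbols are naive and filled purple symbols CpG samples, with circles, squares and triangles for sample numbers 1, 2 and 3, and the thin lines mark the lowest and highest sample median of all autosomal genes (51.2% and 52.1%). Pola1 lies under 10%, Gmnn and Chaf1b close on 50% after CpG, and Mcm6, Dbf4, Pold2, Pole and Rfc3 split by sample number.

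Over the 34 autosomal replication genes with enough reads the median Cast share was 49.5% to 54.1% per sample. The mean naive share lay within 45% to 55% for 14 of them (41.2%) and within 40% to 60% for 23 (67.6%), where 43.6% and 67.5% of all autosomal genes did. Orc4 lay low, at 36.3% to 36.6% in naive and 29.2% to 31.6% in CpG samples, and Cdt1 high, at 58.0% to 62.7% and 61.5% to 66.1%. At 5 genes, or 14.7%, both samples of 1 number lay more than 5 points beyond all 4 others, which 17% of all autosomal genes did. They were Mcm6 and 4 more: Pole was at 62.8% and 59.0% in the samples numbered 2 and at 45.5% to 52.2% in the others, Dbf4 was at 50.3% in both samples numbered 3 and at 71.7% to 80.4% in the others, Rfc3 at 76.8% and 69.8% in the samples numbered 1 and at 39.4% to 43.7% in the others, and Pold2 at 51.7% and 43.8% in those numbered 2 and at 61.4% to 84.1% in the others.

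Among 30 other genes of the replisome and of origin firing, listed with earlier results of these data known, 23 of 29 tested were higher on the 129 allele and 26 of 29 on the Cast allele, against 28.2% and 30.7% of all tested genes, and 0 were lower. Their median log2 fold change was 1.75 and 1.68. Clspn, which encodes claspin, the checkpoint mediator that travels with the fork, changed most (log2 5.66 and 5.16, edgeR adjusted p = 0.000188 and 6.52e-07). Mcm9, an MCM relative that works in repair, lay closest to 0 on both alleles (0.01 and -0.01, edgeR adjusted p = 0.960 and 0.946).

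Of the alternative clamp loaders and the checkpoint clamp, 6 of 8 tested were higher on the 129 allele and 6 of 7 on the Cast allele, with the same shares of all tested genes, 28.2% and 30.7%, as background. Chtf18, the large subunit of the loader used in cohesion, rose by a log2 of 3.49 and 3.10, and Dscc1, its partner, by 2.39 and 4.82. Rad9a, of the checkpoint clamp, fell on the Cast allele (log2 -0.73, edgeR adjusted p = 0.00553) and not past the threshold on the 129 allele (-0.40, adjusted p = 0.0765). Among translesion and other repair polymerases, 1 of 8 was higher and 1 lower on the 129 allele, and 4 of 9 higher and 1 lower on the Cast allele. Of all tested genes 28.2% were higher and 27% lower on the 129 allele, and 30.7% and 31.5% on the Cast allele, so these small counts show no result about the group. Polq, the polymerase of end joining by microhomology, rose by 3.70 and 3.55, and Polm fell by 0.87 and fell by 0.59 on the log2 scale.

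Of the genes that copy mitochondrial DNA, 1 of 7 tested was higher and 2 lower on each allele, again against 28.2% and 27% of all tested genes on the 129 allele and 30.7% and 31.5% on the Cast allele, with median log2 fold changes of -0.22 and -0.06. Of the core of the CRL4 ubiquitin ligase, for which DTL is a receptor, 2 of 4 tested were higher on the 129 allele and 1 of 3 on the Cast allele, near the 28.2% and 30.7% of all genes for counts this small, with Ddb1, the adaptor, at a log2 of 1.29 and 1.08.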

How the data were processed

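Each of the 6 samples had 2 deposited tables of raw read counts per gene, 1 on 129S1/SvImJ and 1 on CAST/EiJ gene identifiers, per the file headers. They end in the tally rows that htseq-count writes. Per the submitters' processing notes the tools included STAR, featureCounts and Subread 2.0.0 and the build mm10, with no role given. How a read was given to a strain, the filters and the use of strand are not given in the sources used here. Libraries were made with a stranded total RNA kit from TRIzol extracts, per the labels' protocols. The authors' deposited table of X-linked genes holds group means in RPKM, an allele value called SRPM that is not spelled out, and the ratio of the inactive to the active X, per the file headers; these carry no n.

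Tally rows were left out of library sizes. Each strain's whole table was tested with edgeR 4.0.16 in R 4.3.3 (TMM factors, filterByExpr, robust quasi-likelihood test, Benjamini-Hochberg at 0.05), with SE derived from the F statistic. The ratio test covered matched genes whose alleles together had 10 reads or more in 3 or more samples. CPM are counts over TMM-scaled library sizes. A gene was matched by a name used once in each strain and by chromosome, and a share needed at least 20 reads in every sample. The tests were checked on simulated counts drawn without an effect of the sample number, so the check does not cover such an effect. Members and lists were chosen with earlier results of these data known. Genes with full values were, per role, the largest and smallest 129 change among genes with a mean of at least 20 reads, Pola1, and genes called on 1 allele alone, called in the ratio test or not tested on an allele. Others are named only where their values were seen.

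Deviations from the group means correlated between same-numbered samples, with r = 0.658, 0.510 and 0.670 on the 129 allele and 0.301, 0.215 and 0.314 on the Cast allele for numbers 1, 2 and 3, so the numbers pair the samples. For the log2 Cast-to-129 ratio r was 0.694, 0.632 and 0.714. The main fits held no term for the number, since the labels state no design. The replicate block was an alternative and is given beside results it changes. Other alternatives were DESeq2 1.42.0, other scaling factors, no filter on low counts, a minimum fold change, and leaving out each sample.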

Additional observations from a re-analysis of the deposited data

Results flagged for a closer look

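The Cast-to-129 ratio of Gmnn and that of Chaf1b differed between naive and CpG samples by the test of the ratio itself. For Gmnn, the inhibitor of CDT1, the log2 change of the ratio was 1.48 (edgeR adjusted p = 0.0341), on 44 to 65 reads over both alleles in the naive samples. For Chaf1b, a subunit of the histone chaperone CAF-1, it was -1.29 (edgeR adjusted p = 0.0123), on 114 to 157 reads. In each case all 3 naive samples lay on the far side of all 3 CpG samples. This was not particular to them: shares of genes not called, such as Mcm2, Mcm5 and Orc4, did not overlap either. How many of all genes did so was not counted. Macrophage markers moved with the same contrast, from 2257 to 4636 CPM in naive to 8.89 to 11.2 CPM in CpG samples on the Cast allele, and their part in the ratios was not tested.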

How the results depend on the processing

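The replication genes called higher numbered 32 to 39 on the 129 allele and 34 to 41 on the Cast allele over the alternatives run on each allele, and 40 with alleles summed, the lowest with a minimum log2 fold change of 1. That setting moved the count of all genes called from 5842 to 2525 on the 129 allele and from 6445 to 2828 on the Cast allele. The replicate block raised the ratio calls from 2 to 6 among the replication genes and from 95 to 779 among all genes, and leaving out single samples gave 0 to 1 and 14 to 26. Without both samples numbered 3, chosen after seeing the data, the ratio calls were 0 and 2, and with the block 4 and 533. The block changed the expression calls of Mcm6 (129 allele), Orc3 (Cast allele) and, with alleles summed, Cdt1, and no other. Upper-quartile factors shifted the median of all genes by -0.15 log2 on the 129 allele and -0.13 on the Cast allele, and with them Cdt1 on the 129 allele turned to -0.047 and Orc5 on the Cast allele to -0.089. Leaving out single samples gave Cdt1 on the 129 allele -0.012 to 0.19, Orc5 -0.14 to 0.048 on the 129 allele and -0.091 to 0.21 on the Cast allele, and the Mcm6 ratio -1.85 to 0.83. Without the samples numbered 3, Orc5 was 0.052 on the 129 allele and -0.019 on the Cast allele, and it was 0.031 with alleles summed. The difference in the Pola1 share ran from 1.69 to 4.75 points over single samples left out, and its paired version, an exact sign-flip test with the replicate block, gave 3.34 points and p = 0.5 (smallest possible 0.25). The causes of these moves were not tested. Depth limits the naive values of Cdc45, Gins2, Orc1 and Cdc6, of Gins1 on the 129 allele and of Pola1 on the Cast allele.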
